A study of Homo sapiens with 16 samples.

Results

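Ribosomes are built in the nucleolus, where RNA polymerase I transcribes the precursor of most ribosomal RNA and where a large set of proteins fold, modify and cut that precursor into the small and large subunits. The 32 genes described here encode factors of this pathway and other nucleolar RNA-binding proteins, and all of them lie on chromosomes 1 and 2 because the list of transcripts with readable gene names covered little else. They were chosen by gene name among genes with at least 10 counts in 2 libraries of each assay, with no cutoff on a change. Earlier results of these data were known when the list was made. They are not every named gene of the pathway, and 11 further ones are described at the end. Each gene is represented by 1 transcript, the one with the most mRNA-Seq counts. All 32 were among the 10970 transcripts that had enough counts to be tested, of 19044 that could be joined between both assays. By role, POLR1A and POLR1B belong to RNA polymerase I. NCL and NOP58 are nucleolin and a box C/D protein. UTP11L, WDR3, WDR43, WDR75, HEATR1, MPHOSPH10, IMP4, PNO1, NOL10 and DIEXF act on small subunit precursors. MRTO4, NOC2L, WDR12, MKI67IP, RRP15, RPF1, GNL2, NVL, URB2, DDX18, CEBPZ, EBNA1BP2 and NOL9 act on large subunit precursors. EXOSC10 and ISG20L2 are nucleases, METTL5 methylates 18S ribosomal RNA, and RBM34 and SSB bind RNA.

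The cells were HEK293T, a line derived from human embryonic kidney. The 4 groups were untreated cells, cells given tunicamycin (Tm) at 1 µg/ml, cells given the same Tm dose plus ISRIB at 200 nM, and cells given that dose of ISRIB alone, each treatment lasting 1 hr. Tm blocks N-linked glycosylation and so causes ER stress, which leads to phosphorylation of the initiation factor eIF2, and ISRIB is a small molecule that makes cells insensitive to that phosphorylation. Each of the 4 treatments has 2 replicates (a and b), and every lysate was split to give ribosome-protected fragments (RPFs, Ribo-Seq) and mRNA (mRNA-Seq), so that there are 16 libraries. All cells, the untreated ones included, received cycloheximide before lysis, and the identity of the cell line was not checked in the data.

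Values are CPM, counts per 1000000 of a library total scaled by TMM, and changes are log2 fold changes with their standard error from edgeR's quasi-likelihood test. A gene was called when its p, adjusted by Benjamini-Hochberg over all 10970 transcripts, was under 0.1. Because every library is scaled to the others, a change is relative to the whole pool of fragments, and a loss shared by all transcripts would not show. In bulk samples, fewer cells and less RNA per cell cannot be told apart either. The ratio of RPF CPM to mRNA CPM of a lysate is its translational efficiency, and changes in it were tested as the interaction of treatment and assay over 16 libraries.

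Ribo-Seq libraries held 3001612 to 11469150 counts on the joined transcripts, with the lowest totals in the Tm replicates, whose part in the results was not tested, and mRNA-Seq libraries held 8466193 to 24499266. Counts of the 32 genes ranged from 119 RPFs, for ISG20L2 in Tm replicate b, to 34580 mRNA reads, for NCL. One pair of libraries stood apart. The ISRIB replicates of mRNA-Seq differed by a chi-square per degree of freedom of 12.1, against 2.14 to 5.48 for the other mRNA-Seq pairs and 1.63 to 5.34 for the Ribo-Seq pairs. Between those ISRIB replicates, the mRNA of the 32 genes differed by -0.29 (POLR1A) to 0.26 (RPF1) on the log2 scale, with a median of 0.10. As a check of the treatments, the RPF level of ATF4, the transcription factor whose translation rises when eIF2 is phosphorylated, was 81.7 and 61.6 CPM in untreated cells, 455 and 464 in Tm and 53.7 and 66.3 in Tm with ISRIB.

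Before the changes, the promoters show a feature that the choice of genes did not use. In RefSeq (GRCh38.p14), 27 of the 32 genes matched a promoter, taken as 250 bases before to 50 after an annotated start, and NOP58, MPHOSPH10, NOL10, URB2 and DDX18 did not. The palindrome CACGTG, known as the canonical E-box, lay within 30 bases of a start in 6 of these 27 genes, which is 22.2%. Among 10 of the further genes of the pathway that matched a promoter, it did so in 1, and it lay anywhere in the promoter in 2. Over all 35116 promoters of the same table the share was 1.59%, and over the 15842 protein-coding genes with a promoter it was 2.6%. These backgrounds were not limited to expressed genes, whereas the 32 genes all passed a filter on counts. The part of this difference was not tested. Anywhere in the 300 bases, the motif was found in 8 of 27 genes (29.6%), against 10.9% of protein-coding genes and 7.26% of all promoters. CACGTG reads the same on both strands and no other motif was searched for. The 30 bases around the start of the 6 genes are shown because they hold the motif just after the start, with the motif in capitals, 5′ to 3′ on the gene's strand. WDR43, MRTO4 and PNO1 among them are genes whose RPFs or translational efficiency were called below. POLR1A, NCL, UTP11L, EBNA1BP2 and ISG20L2 were also called and had promoters without the motif within 30 bases of a start. A link between the motif and the calls was not tested.
WDR43 (chr2:28894658-28894687, plus strand): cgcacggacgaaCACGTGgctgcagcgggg
PNO1 (chr2:68157879-68157908, plus strand): ctgcgtggtgcagctgcgCACGTGtttcag
MRTO4 (chr1:19251796-19251825, plus strand): acggggtgcaccgtcttccgccgCACGTGg
GNL2 (chr1:37595917-37595946, minus strand): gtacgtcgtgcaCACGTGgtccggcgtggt
IMP4 (chr2:130342888-130342917, plus strand): ggagcccacagattctcccggaccCACGTG
DIEXF (chr1:209827963-209827992, plus strand): ccgtaaagcgcagtcagcgagccCACGTGc

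The RefSeq start is base 10 of each line. Counted from it, the first base of the motif lies at position 4 in WDR43 and GNL2, 10 in PNO1, 15 in MRTO4 and DIEXF, and 16 in IMP4. In GENCODE v29 (GRCh38), the coding sequences of all 32 genes matched an annotated transcript, and 12 of them had an AUG in the 5′ UTR. That is 37.5%, against 53% of the 1806 named transcripts that matched. The median 5′ UTR was 132 bases for the 32 genes and 207 for the named transcripts. The count of upstream AUGs was highest for ISG20L2, with 16, and WDR12, with 9, while NOP58, WDR43, NOL10 and PNO1 had none. For the genes with a sequence above, these GENCODE transcripts start at other positions than the RefSeq starts. Those of DIEXF and GNL2 start after the motif, at chr1:209828007 and chr1:37595921 (minus strand), and the others start before it.

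The levels in untreated cells were compared per length of the coding sequence, as CPM per 1000 codons. The mRNA level of all 32 genes was above the median of all transcripts tested, which was 68.7, and their own median was 372. Each of the 32 was the transcript of its gene with the most mRNA-Seq counts, a choice not made for the other transcripts. The part of this choice in the level was not tested. The highest mRNA level was that of NCL, which encodes nucleolin, an abundant RNA-binding protein of the nucleolus, at 3089 ± 423 (SD, n = 2). SSB, which encodes the La protein that binds new RNA polymerase III transcripts, followed at 1243 ± 82 (SD, n = 2), and NOP58, a core protein of the box C/D small nucleolar RNPs that methylate ribosomal RNA, at 875 ± 45 (SD, n = 2). The lowest was POLR1A, the largest subunit of RNA polymerase I, at 115 ± 11 (SD, n = 2). RPF levels per 1000 codons spanned a wider range, from 54.5 ± 0.54 (SD, n = 2) for DIEXF to 3532 ± 162 (SD, n = 2) for NCL, which is a ratio of 64.9 against 26.8 for mRNA. Of the 31 pairs of neighbours in the order of RPF levels, 16 had overlapping replicates, as did 16 of 31 in the order of mRNA levels, so that many steps of either order are not larger than the replicate spread.

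The genes differed 6.34-fold in their RPF to mRNA ratio in untreated cells. Only 9 of 32 had a ratio above the median of all transcripts, 1.03, and their own median was 0.725. The choice of transcript by mRNA-Seq counts enters this ratio as well, and its part was not tested. The highest ratios were those of UTP11L, a component of the small subunit processome, at 1.67 ± 0.28 (SD, n = 2), and MRTO4, which holds the place of the ribosomal stalk on large subunit precursors, at 1.60 ± 0.21 (SD, n = 2). The lowest was that of HEATR1, a large processome component that also takes part in transcription of ribosomal DNA, at 0.264 ± 0.017 (SD, n = 2). HEATR1 had 1098 and 1118 mRNA CPM in the untreated replicates, the most after NCL when length is not taken into account, and 303 and 281 RPF CPM. NVL, an AAA ATPase that releases factors from large subunit precursors, had the next lowest ratio, 0.304 ± 0.007 (SD, n = 2). Ratios tended to be lower for longer coding sequences. Spearman's rho between them was -0.57 over the 32 genes, described here without a test because the genes share their libraries, and it was -0.39 over all 10970 transcripts. The median length was 660 counted codons for the 32 genes, against 477.5 for the 1806 named transcripts matched to an annotation. The part of length in the low ratios was not tested. HEATR1, with 2125 counted codons, was the longest, and MRTO4, with 220, and UTP11L, with 234, were among the shortest. Of the 31 pairs of neighbours in this order, 23 overlapped.

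**Figure D1:**
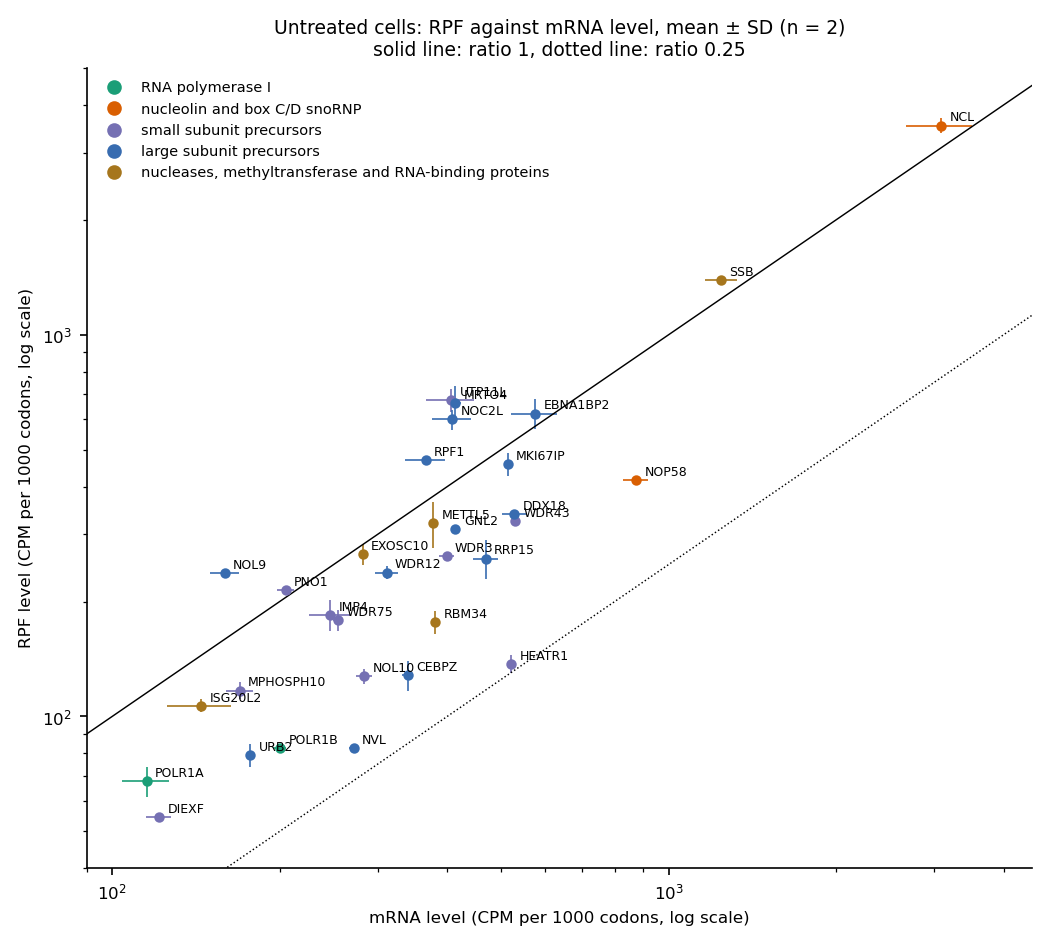
RPF level against mRNA level of the 32 genes in untreated cells, both as CPM per 1000 codons on log scales, with points at the mean of 2 replicates, bars at the SD and colors for the role of the gene. The solid line marks a ratio of 1 and the dotted line a ratio of 0.25; HEATR1, at a ratio of 0.264, lies next to the dotted line, and 9 genes lie above a ratio of 1.03.

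To ask what ER stress did to the synthesis of these factors, RPFs in Tm were compared with those in untreated cells. The changes were small and mostly upward. NOP58, POLR1A and WDR43 rose, 3 of 32 genes, and none fell, while among all transcripts 6.33% were called higher and 7.21% lower. The log2 fold change was above 0 for 25 of the 32 genes (78.1%), against 48.6% of all transcripts, and their median was 0.10, against -0.008. Between replicates a and b, the median log2 difference of the 32 genes was -0.08 in Tm and -0.02 in untreated cells. Over all settings their median change in Tm stayed between 0.09 and 0.15. Both Tm libraries were above both untreated libraries for 19 genes, where the share of all transcripts is 24.4%, and below both for 2 genes, where it is 26.9%. These are counts over genes that share 4 libraries, and no test was made of the list as a whole. The list was made with earlier results of these data known, so the counts are not independent of that choice. With libraries scaled by their total counts, which moved the median of all transcripts to 0.05, 9 of the 32 genes rose and none fell, while 9.74% of all transcripts were called higher and 4.91% lower.

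NOP58 had an RPF level of 209.6 and 214 CPM in the untreated replicates and of 256 and 287 in the Tm replicates, replicate a first here and below, from 1675 and 2400 and 1102 and 878 counts. Both Tm libraries were higher, and the log2 fold change was 0.35 ± 0.08 (SE, adjusted p = 0.0028). It was called under every alternative setting tried. POLR1A had 108 and 123 CPM in untreated cells and 138 and 156 in Tm, a log2 fold change of 0.34 ± 0.09 (SE, adjusted p = 0.014). WDR43, an early component of the small subunit processome, had 212 and 215 CPM and 244 and 263 CPM, a log2 fold change of 0.24 ± 0.08 (SE, adjusted p = 0.044). For these genes too the groups did not overlap. Without the lysate of Tm replicate b, the smallest Ribo-Seq library, POLR1A and WDR43 were no longer called, with values of 0.26 and 0.19 (adjusted p = 0.21 and 0.31).

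POLR1B and NCL, of the same role groups as POLR1A and NOP58, were not called. POLR1B, the second largest subunit of RNA polymerase I, had 90.5 and 93.6 RPF CPM in untreated cells and 96.7 and 85.9 in Tm, and its log2 fold change was -0.0047 ± 0.10 (SE, adjusted p = 0.99). The groups overlapped, and the difference between POLR1B and POLR1A was not tested. The annotated 5′ UTRs of POLR1A and POLR1B each hold 6 AUGs. NCL had 2362 and 2520.1 CPM and 2637 and 2719.5 CPM, so that the groups did not overlap, with a log2 fold change of 0.13 ± 0.06 (SE, adjusted p = 0.17) that was not called. It was called without untreated replicate b (adjusted p = 0.032) and with libraries scaled by their total counts (adjusted p = 0.026).

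Among the 10 genes that act on small subunit precursors, 1 was called and 7 had a log2 fold change above 0, with a median of 0.09. Those above 0 included UTP11L at 0.21 ± 0.09 (SE, adjusted p = 0.14), WDR75 at 0.18 and MPHOSPH10 at 0.18. HEATR1 had 303 and 281 CPM in untreated cells and 296 and 329.6 in Tm, which overlap. The lowest values of all 32 genes were in this group. NOL10, a nucleolar protein needed for processing toward the small subunit, had 88.1 and 82.6 CPM and 72.3 and 73.2 CPM, a log2 fold change of -0.23 ± 0.10 (SE, adjusted p = 0.14). PNO1, which stays on the small subunit precursor until late steps, had 50.3 and 49.6 CPM and 40.5 and 48.7 CPM, a log2 fold change of -0.18 ± 0.11 (SE, adjusted p = 0.37). Both Tm libraries were below both untreated libraries for each of these genes, but neither was called.

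Among the 13 genes that act on large subunit precursors, none was called at the threshold in this comparison and 11 were above 0, with a median of 0.10. WDR12, part of the PeBoW complex, had the highest value, 0.23 ± 0.09 (SE, adjusted p = 0.11). MRTO4 had 134 and 157 CPM in untreated cells and 168 and 169 in Tm, a log2 fold change of 0.21 ± 0.09 (SE, adjusted p = 0.14). It was called without untreated replicate b (adjusted p = 0.018). GNL2, a nucleolar GTPase, had 225 and 217 CPM and 230.0 and 230.3 CPM, which differ by 0.06 ± 0.07 (SE, adjusted p = 0.68). Of the 5 nucleases, methyltransferase and RNA-binding proteins, none was called. SSB had 544 and 538 CPM in untreated cells and 499 and 581 in Tm, a log2 fold change of -0.0053 ± 0.07 (SE, adjusted p = 0.98).

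**Figure D2:**
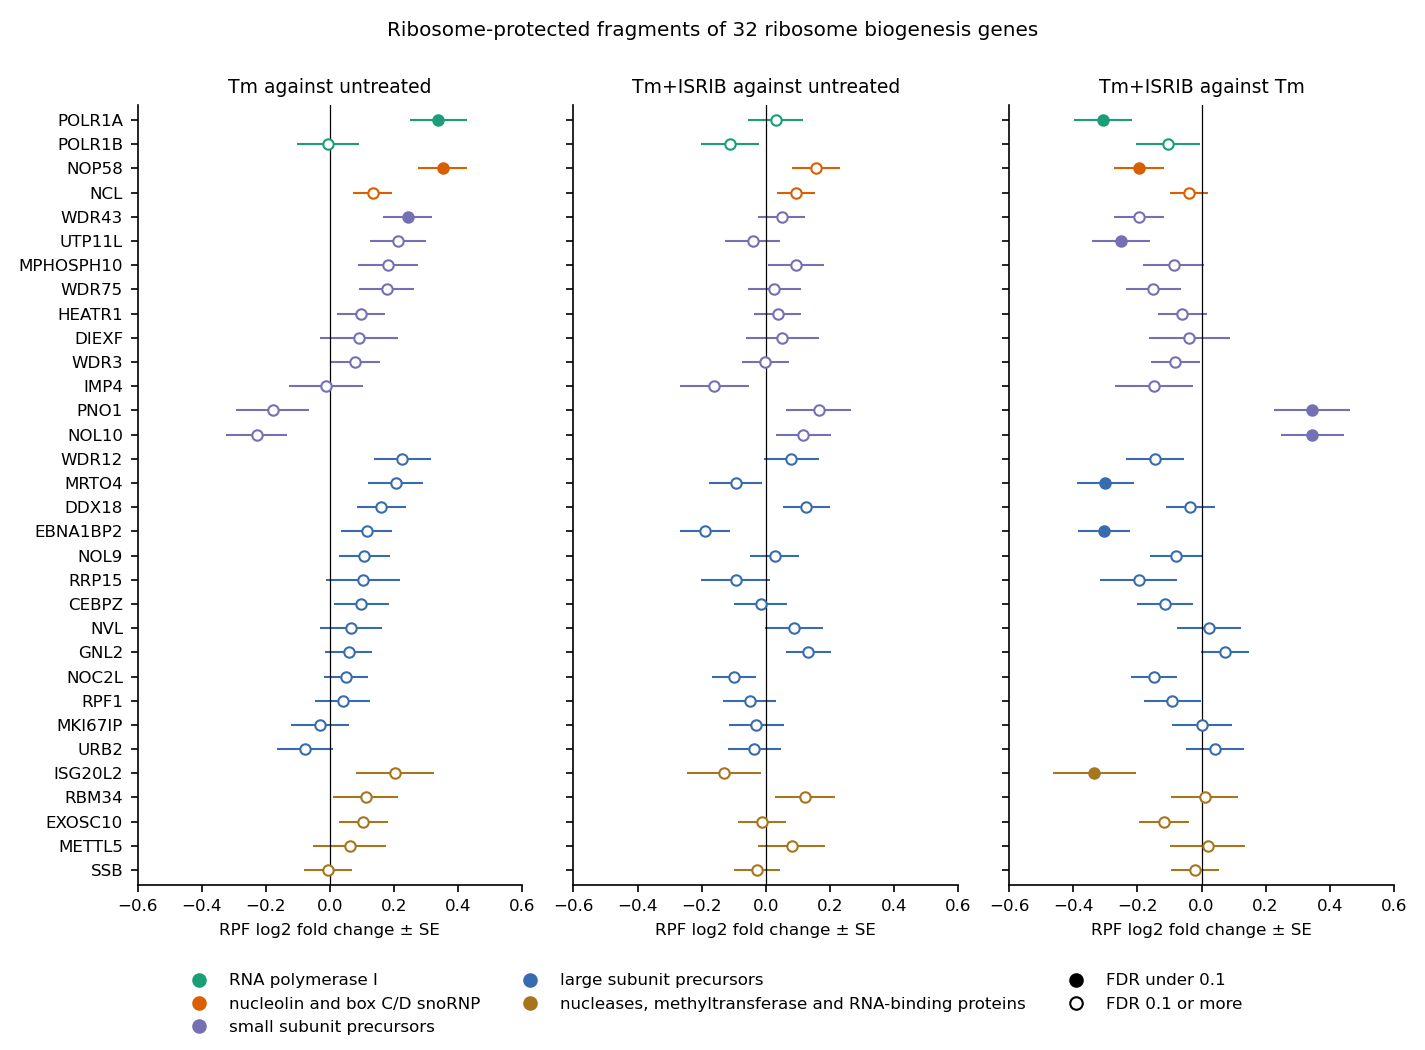
RPF log2 fold change of each of the 32 genes in 3 comparisons, with bars at ± 1 SE, filled points for genes with an adjusted p under 0.1 and colors for the role of the gene. In Tm against untreated cells 25 points lie right of 0 and 3 are filled, in Tm+ISRIB against untreated cells none is filled, and in Tm+ISRIB against Tm 24 points lie left of 0 and 8 are filled, of which NOL10 and PNO1 lie right of 0.

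With ISRIB added to Tm, none of the 32 genes was called against untreated cells by edgeR, where 2.65% of all transcripts were called. DESeq2's Wald test also called none, against 1.43% of the transcripts it tested. By edgeR, 2 of the 32 genes (6.25%) had an unadjusted p under 0.05, against 13.2% of all transcripts. The median log2 fold change of the 32 genes was 0.03, with 17 above 0. NOP58 had 231 and 242 CPM, between its untreated and its Tm levels, and POLR1A had 118 and 118 CPM, within the range of its untreated replicates. ISRIB alone called none either, where 0.0182% of all transcripts were called, and 2 of the 32 (6.25%) had an unadjusted p under 0.05, against 4.29% of all transcripts. None of the 32 was called by DESeq2's Wald test, against 0.0182% of the transcripts it tested. Under ISRIB alone, the median was 0.03 and the values lay between -0.18 (DIEXF) and 0.17 (GNL2).

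The direct comparison of Tm with ISRIB against Tm, in which both groups were stressed, gave more calls. Of the 32 genes, 6 fell and 2 rose, where 8.2% of all transcripts were called lower and 9.53% higher. The median was -0.09 for the 32 genes and 0.004 for all transcripts, and 24 of 32 genes were below 0. Both Tm+ISRIB libraries were below both Tm libraries for 14 genes, where the share of all transcripts is 27.2%, and above both for 3 genes, where it is 28.2%. With total counts, 8 of the 32 genes fell and 2 rose, where 12% of all transcripts were called lower and 7.23% higher. This comparison shares the Tm libraries with the comparison above, so a high or low Tm level enters both with opposite sign.

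The genes that fell came from each of the role groups. EBNA1BP2, a scaffold of large subunit precursors, had 233 and 228 CPM with Tm alone and 190.4 and 183 in Tm with ISRIB, a log2 fold change of -0.30 ± 0.08 (SE, adjusted p = 0.013). This call held under every alternative setting tried. Its untreated level was 199 and 226 CPM, so that both Tm+ISRIB libraries were also below both untreated libraries, by a difference of -0.19 ± 0.08 (SE, adjusted p = 0.26) that was not called. MRTO4 had 136 and 137 CPM in Tm with ISRIB, below both of its Tm values, at -0.30 ± 0.09 (SE, adjusted p = 0.024). POLR1A, with 118 and 118 CPM, changed by -0.31 ± 0.09 (SE, adjusted p = 0.025) relative to Tm. NOP58, with 231 and 242 CPM, changed by -0.20 ± 0.08 (SE, adjusted p = 0.0953).

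UTP11L and ISG20L2, an exonuclease that trims the 5.8S precursor, also fell. UTP11L had 173 and 194 CPM in Tm and 144 and 162 in Tm with ISRIB, a log2 fold change of -0.25 ± 0.09 (SE, adjusted p = 0.067). ISG20L2 had 43.0 and 38.9 CPM and 33.0 and 32.4 CPM, from 185 and 119 and 192 and 208 counts, and a log2 fold change of -0.33 ± 0.13 (SE, adjusted p = 0.089). Groups did not overlap for either gene.

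NOL10 and PNO1 rose. NOL10 went from 72.3 and 73.2 CPM in Tm to 94.9 and 90.1 in Tm with ISRIB, a log2 fold change of 0.35 ± 0.10 (SE, adjusted p = 0.019). PNO1 went from 40.5 and 48.7 CPM to 54.8 and 57.2 CPM, a log2 fold change of 0.34 ± 0.12 (SE, adjusted p = 0.052). Both were also the genes with the lowest values in Tm against untreated cells. With ISRIB alone they were at 88.1 and 83.8 and 52.1 and 50.7 CPM, close to their untreated 88.1 and 82.6 and 50.3 and 49.6.

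Several of these calls were lost when 1 lysate was left out, which also leaves fewer libraries to test. Over all settings the log2 fold change of MRTO4 stayed between -0.35 and -0.29, that of NOL10 between 0.30 and 0.38, and that of POLR1A between -0.40 and -0.22. ISG20L2 and NOP58 were lost without ISRIB replicate a, which is in neither group but enters the estimate of spread (adjusted p = 0.11 and 0.12), and ISG20L2 was lost without any one of the compared lysates, with p up to 0.43 without Tm replicate a. Without Tm replicate b, POLR1A, NOP58, UTP11L and MRTO4 had adjusted p = 0.26, 0.54, 0.41 and 0.12. Without Tm replicate a, NOL10 and PNO1 had 0.12 and 0.47, and MRTO4 had 0.101. Without Tm+ISRIB replicate a the calls other than that of EBNA1BP2 were lost, and without Tm+ISRIB replicate b those of NOP58, PNO1 and ISG20L2. DESeq2's Wald test did not call NOP58, UTP11L, ISG20L2 or PNO1 (adjusted p = 0.16, 0.13, 0.24 and 0.17). The direction was kept in each case. Where NOP58 lost its call without Tm replicate b, its log2 fold change was -0.12, and where PNO1 did without Tm replicate a, it was 0.20.

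**Figure D3:**
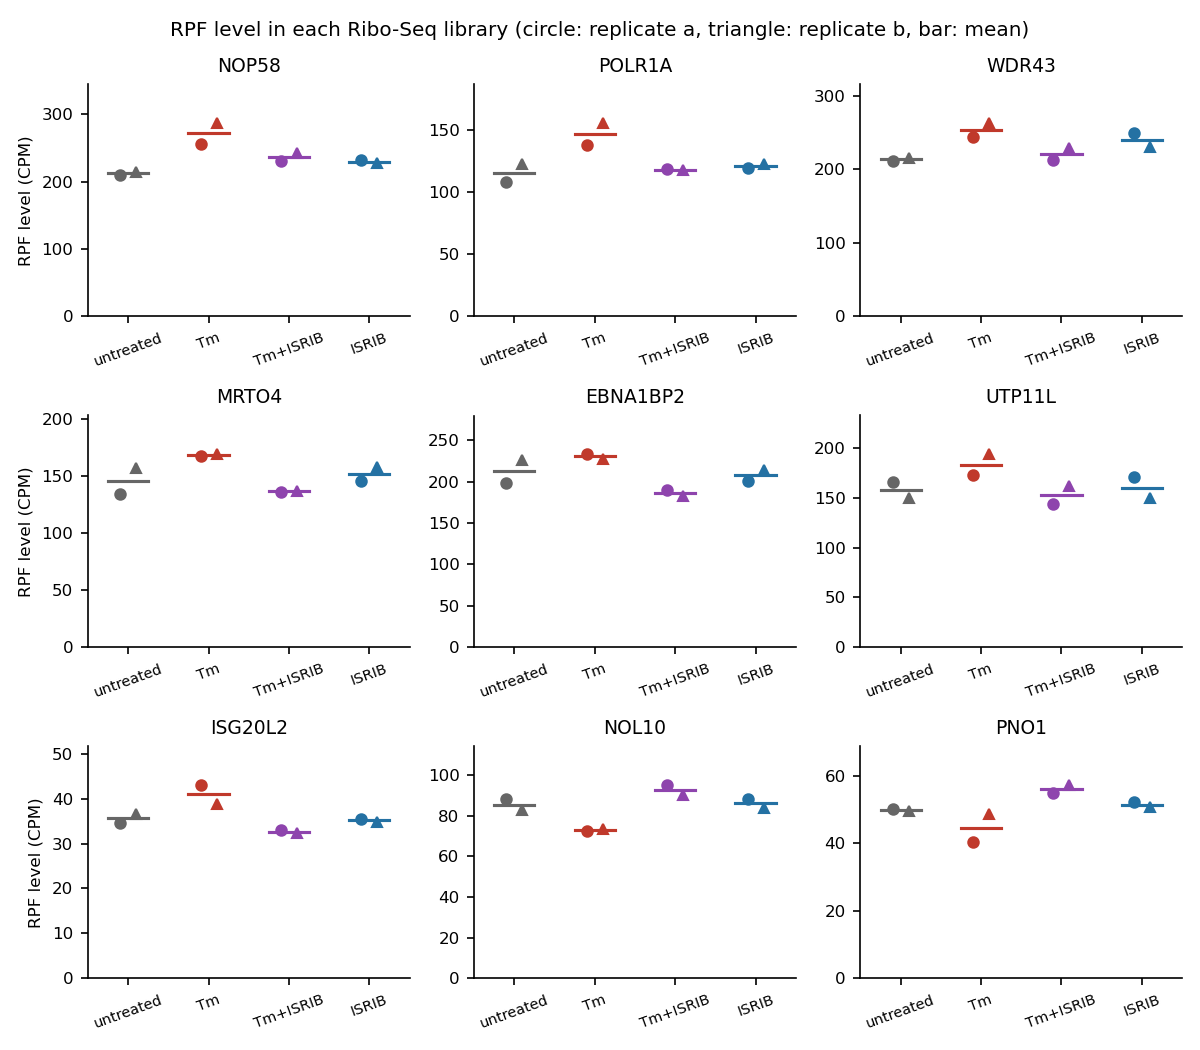
RPF level in CPM, on axes from 0, in each of the 8 Ribo-Seq libraries for the 9 genes called in RPFs, with a circle for replicate a, a triangle for replicate b and a bar at the mean of each treatment. For NOL10 both Tm libraries (72.3 and 73.2 CPM) lie below the 6 others, and for NOP58 both (256 and 287 CPM) lie above the 6 others.

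Whether the effect of Tm itself differed with ISRIB was tested as (Tm+ISRIB minus ISRIB) minus (Tm minus untreated) over all 8 Ribo-Seq libraries. The difference was called for 3 genes, all with a lower value when ISRIB was present, where 3.1% of all transcripts were called lower and 3.8% higher. It was -0.38 ± 0.13 (SE, adjusted p = 0.09) for POLR1A, -0.36 ± 0.11 (SE, adjusted p = 0.057) for WDR43 and -0.36 ± 0.12 (SE, adjusted p = 0.095) for MRTO4. WDR43 had 249.8 and 231 CPM with ISRIB alone and 213 and 229 with both compounds. The latter lay below the former, but these 2 groups were not tested against each other. With ISRIB alone against untreated cells, its log2 fold change was 0.17 ± 0.08 (SE, adjusted p = 0.999), which was not called. MRTO4 had 146 and 158 CPM with ISRIB alone, and 136 and 137 with both. NOP58 had -0.31 ± 0.11 (SE, adjusted p = 0.102), just outside the threshold, and POLR1B, with -0.08, was not called. The difference was below 0 for 27 of 32 genes. It was above 0 for 15.6% of them, against 51.6% of all transcripts. The change in Tm against untreated cells enters this difference with opposite sign, so the 2 results share those libraries. The call was lost for all 3 genes without Tm replicate b, without Tm+ISRIB replicate a and without ISRIB replicate a, in which adjusted p for WDR43, for example, was 0.23, 0.26 and 0.25. POLR1A and MRTO4 were also lost with DESeq2's Wald test (adjusted p = 0.12 and 0.13), without ISRIB replicate b, Tm+ISRIB replicate b or untreated replicate a, and MRTO4 without Tm replicate a, with adjusted p from 0.16 to 0.32 and log2 values between -0.37 and -0.25.

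At the level of mRNA, MRTO4 rose, and it was the only one of the 32 genes called by edgeR in the 4 comparisons. Its mRNA was 92.5 and 89.3 CPM in untreated cells, 106 and 107 in Tm and 107 and 106 in Tm with ISRIB. Replicates of each treatment were close together and both stressed groups lay above the untreated one. The log2 fold change was 0.23 ± 0.07 (SE, adjusted p = 0.085) in Tm and 0.23 ± 0.07 (SE, adjusted p = 0.066) in Tm with ISRIB, and the shares of all transcripts called in either direction were 11.0% and 14.2%. Both calls were lost with DESeq2's Wald test (adjusted p = 0.21 and 0.15) and without any one of the compared lysates, with adjusted p from 0.16 to 0.33. The call in Tm was also lost with total counts (adjusted p = 0.12). Over all settings, the log2 fold change stayed between 0.18 and 0.25 in Tm and between 0.19 and 0.25 in Tm with ISRIB. Under ISRIB alone none of the 32 was called, against 1.15% of all transcripts, with 2 of 32 (6.25%) at an unadjusted p under 0.05, against 14.4% of all transcripts. DESeq2's Wald test called none here, against 2.23% of the transcripts it tested, or in Tm with ISRIB against Tm, against 0%. In Tm with ISRIB against untreated cells it called 1 of the 32 genes, as lower. There it called 4% of the transcripts it tested lower and 6.25% higher, and edgeR's call of MRTO4 was in the other direction. Between Tm with ISRIB and Tm none was called either, against 0.0% of all transcripts, and 1 of the 32 (3.12%) had an unadjusted p under 0.05, against 1.8% of all transcripts.

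The ISRIB replicates of mRNA-Seq differed from each other, which does not tell which of them is the odd one. Both enter the estimate of spread for every mRNA comparison. The effect of leaving out replicate b on the calls in Tm and in Tm with ISRIB was not tested. Only the lysate of replicate a was left out of every comparison. Without that lysate, a choice made after seeing the data, 7 of the 32 genes were called in Tm against untreated cells and 8 in Tm with ISRIB, where the shares of all transcripts were 26.6% and 30.0%. MRTO4, PNO1, MKI67IP, RPF1 and DIEXF were called higher in both, with values in Tm of 0.23, 0.26, 0.22, 0.20 and 0.19. In Tm, NOC2L was also called higher, at 0.18, and POLR1A lower, at -0.23. In Tm with ISRIB, EXOSC10, the nuclear exosome's nuclease, was called higher, at 0.15, and RRP15 and NCL lower, at -0.17 and -0.36. For PNO1 the mRNA was 48.9 and 46.7 CPM in untreated cells, 56.7 and 57.4 in Tm and 59.5 and 52.6 in Tm with ISRIB. For POLR1A it was 210.0 and 183, 158 and 176 and 158 and 183, with overlap between the last group and untreated cells. In the fit with all libraries these log2 fold changes in Tm were 0.26 ± 0.09 (SE, adjusted p = 0.13) for PNO1 and -0.23 ± 0.11 (SE, adjusted p = 0.22) for POLR1A.

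Translational efficiency combined both assays. In Tm, it rose for POLR1A and NOP58 and fell for PNO1, while 7.2% of all transcripts were called higher and 8.71% lower. POLR1A had an RPF to mRNA ratio of 0.513 and 0.671 in untreated lysates and 0.874 and 0.885 in Tm lysates, and its efficiency changed by 0.58 ± 0.15 (SE, adjusted p = 0.018) on the log2 scale. NOP58 went from 0.488 and 0.464 to 0.578 and 0.682, a change of 0.40 ± 0.11 (SE, adjusted p = 0.029). Its mRNA was 430.0 and 462 CPM in untreated cells and 443 and 420.4 in Tm, which overlap. PNO1 had ratios of 1.03 and 1.06 in untreated cells and 0.714 and 0.848 in Tm, a change of -0.43 ± 0.15 (SE, adjusted p = 0.062), with more mRNA and fewer RPFs in both Tm lysates than in both untreated ones. Neither WDR43, at 0.23 ± 0.12 (SE, adjusted p = 0.21), nor NCL, at 0.20 ± 0.15 (SE, adjusted p = 0.44), was called, and the median over the 32 genes was 0.07.

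These calls were also lost in some fits with 1 lysate left out. Over all settings the change in efficiency stayed between 0.38 and 0.78 for POLR1A, between 0.28 and 0.52 for NOP58 and between -0.55 and -0.30 for PNO1. POLR1A was lost without Tm replicate a, Tm replicate b or untreated replicate a (adjusted p = 0.11, 0.11 and 0.21, with a value of 0.38 in the last). NOP58 was lost without Tm replicate b or untreated replicate b (adjusted p = 0.29 and 0.15), and PNO1 without any one of the 4, with p from 0.11 to 0.41. With libraries scaled by their total counts, PNO1 was not called (adjusted p = 0.13) and 4 genes rose, while 12% of all transcripts were called higher and 5.69% lower, with their median at 0.09. Nor was PNO1 called by DESeq2's Wald test (adjusted p = 0.14).

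In Tm with ISRIB against untreated cells, the efficiency of NCL rose and that of MRTO4 fell, while 3.96% of all transcripts were called higher and 5.0% lower. NCL had ratios of 1.22 and 1.08 in untreated lysates and 1.40 and 1.81 in Tm with ISRIB, a change of 0.46 ± 0.15 (SE, adjusted p = 0.084). Its RPF level was 2362 and 2520.1 CPM in untreated and 2642 and 2573 CPM in Tm+ISRIB libraries, a log2 fold change of 0.09 ± 0.06 (SE, adjusted p = 0.53) that was not called. Its mRNA level was 1928 and 2341 CPM in untreated and 1892 and 1423 CPM in Tm+ISRIB libraries, with a wide gap between the latter. Without Tm+ISRIB replicate b the change of NCL was 0.29 (adjusted p = 0.37), and the call was also lost without untreated replicate a or b (adjusted p = 0.11 and 0.37). MRTO4 had ratios of 1.45 and 1.76 and 1.28 and 1.29, a change of -0.32 ± 0.11 (SE, adjusted p = 0.0991). It was not called with the lysate as a replicate block (adjusted p = 0.14), which pairs the libraries made from 1 lysate, nor under 5 of the other settings on all libraries, nor without untreated replicate b or either Tm+ISRIB replicate, with a value of -0.18 in the first of these. ISRIB alone called none of the 32 genes, against 0.191% of all transcripts, and 1 (3.12%) had an unadjusted p under 0.05, against 8.89% of all transcripts. Tm with ISRIB against Tm called none in the fit over all libraries, against 6.11% of all transcripts, and 7 genes (21.9%) had an unadjusted p under 0.05, against 17.3% of all transcripts. DESeq2's Wald test called none in either comparison, against 0.574% of the transcripts it tested for ISRIB alone and 6.65% for Tm with ISRIB against Tm. In a fit of only these treatments, 4 of the 32 genes were called, against 9.37% of all transcripts.

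**Figure D4:**
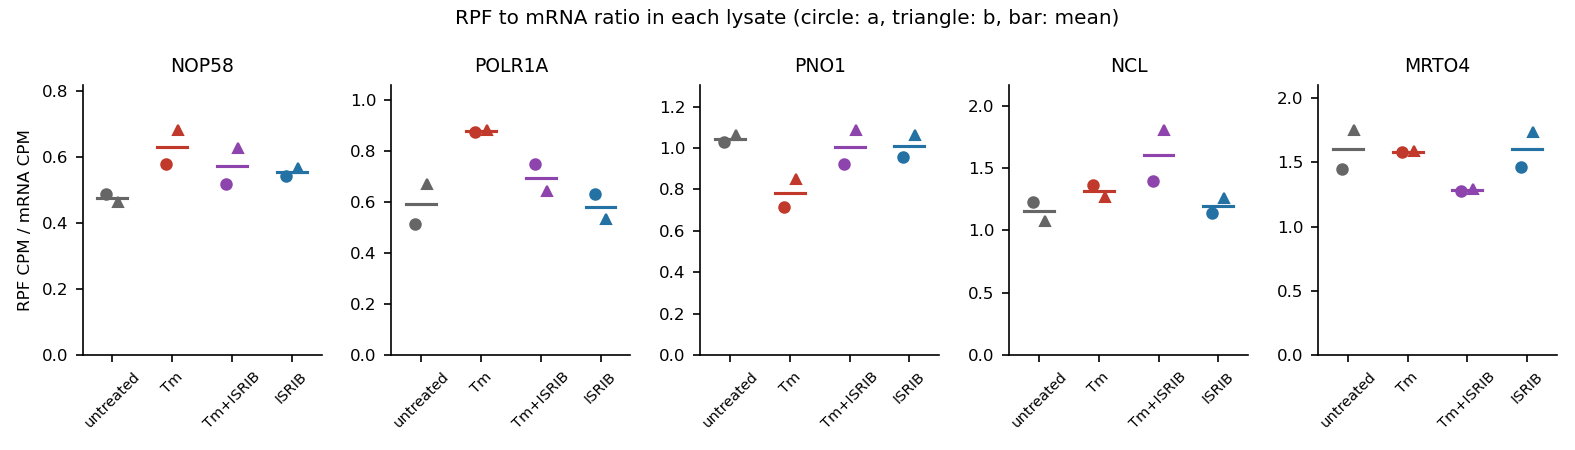
Ratio of RPF CPM to mRNA CPM in each of the 8 lysates, on axes from 0, for the 5 genes called in translational efficiency, with a circle for replicate a, a triangle for replicate b and a bar at the mean. POLR1A lies at 0.874 and 0.885 in Tm, above the 6 other lysates, and PNO1 at 0.714 and 0.848, below the 6 others.

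A further 11 genes of the pathway with a readable name, which were not among the 32, were measured in the same way. In Tm against untreated cells, 2 of them rose in RPFs and none fell, where 6.33% of all transcripts were called higher and 7.21% lower. In Tm with ISRIB against Tm the same 2 fell and none rose, where 8.2% of all transcripts were called lower and 9.53% higher. DNTTIP2, a nucleolar component of the small subunit processome, had 105 and 82.6 RPF CPM in untreated cells, 154 and 176 in Tm, 89.8 and 111 in Tm with ISRIB and 105 and 95.7 with ISRIB. Its RPF log2 fold change in Tm was 0.82 ± 0.11 (SE, adjusted p = 2.9e-06), over 1.5 times the size of any of the 32 genes, and its translational efficiency rose by 0.74 ± 0.15 (SE, adjusted p = 0.0038). With ISRIB added, RPFs changed by -0.71 ± 0.11 (SE, adjusted p = 3.4e-05) and efficiency by -0.73 ± 0.15 (SE, adjusted p = 0.012). GPATCH4, a nucleolar protein with a G-patch domain, had 69.3 and 74.1, 89.1 and 89.8 and 61.8 and 63.9 CPM in the first 3 of these groups, with 0.32 ± 0.09 (SE, adjusted p = 0.031) in Tm and -0.51 ± 0.10 (SE, adjusted p = 0.00076) for the addition of ISRIB. The effect of Tm with and without ISRIB differed for both, by -0.82 ± 0.15 (SE, adjusted p = 0.0019) and -0.57 ± 0.13 (SE, adjusted p = 0.015). In this difference 3.1% of all transcripts were called lower and 3.8% higher. At the level of mRNA, TAF1A, a subunit of the factor that brings RNA polymerase I to ribosomal DNA, was lower in Tm with ISRIB than in untreated cells, at -0.34 ± 0.08 (SE, adjusted p = 0.044). In that comparison of mRNA, 14.2% of all transcripts were called in either direction. The other 8 genes (AAMP, C1D, C1orf109, C1orf131, TAF1B, XPO1, ZNF593 and ZNHIT6) were not called in any quantity or comparison.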

How the data were processed

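Per the labels and the study's methods, lysates of HEK293T cells were split between RNase I footprints and mRNA. For each UCSC transcript, the authors deposited whole-number counts over the coding sequence, without normalization or pooling. The submitters' processing notes name CASAVA 1.8, Bowtie 1.0.0, TopHat2 2.0.10 and 2.0.7 and hg19, with no roles, and the counter and its treatment of reads shared by gene copies are not given in the sources used here.

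Transcripts were joined by identifier without version and by equal counted length (19044 of 21520 with a coding sequence in Ribo-Seq). Names came from the study's table, of which 1887 of the joined transcripts were readable. Members and lists were chosen with earlier results of these data known. Per-library values are given for NCL, NOP58, POLR1A, POLR1B, HEATR1, GNL2 and SSB and for the 7 further members called in RPFs or translational efficiency.

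filterByExpr with 10 counts in both assays left 10970 transcripts. Changes were fitted after TMM scaling by edgeR's quasi-likelihood F-test (edgeR 4.0.16 under R 4.3.3) over all 8 libraries of an assay, or all 16 for translational efficiency, with Benjamini-Hochberg adjustment per comparison and a threshold of 0.1. Replicates varied by 5.62% (RPFs) and 6.7% (mRNA), as edgeR's common biological coefficient. With 2 replicates an exact test of 1 value cannot go below p = 0.333. The scripts were tested on simulated data. Alternatives were DESeq2 1.42.0, size factors, total counts, filters, only the compared treatments, a replicate block, 1 lysate left out and repeated counts kept once. The RPF and mRNA libraries of a lysate are paired by origin. The letters share only a name across treatments. Correlations of deviations were -0.053 to 0.039 within lysates. The study's text calls the replicates biological.

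RefSeq promoters (GRCh38.p14) matched 27 members by current or older symbol, and GENCODE v29 transcripts matched all 32 by symbol and coding length; coordinates are the annotation's, not the files'. Tables and figures used Python 3.11.15, pandas 2.3.3, numpy 2.4.6 and matplotlib 3.10.9.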

Additional observations from a re-analysis of the deposited data

Results flagged for a closer look

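A different effect of Tm on RPFs with and without ISRIB was called for 5 genes, by the interaction tested over the 8 Ribo-Seq libraries with edgeR's quasi-likelihood test. Of all transcripts, 3.1% were called lower by it and 3.8% higher. The difference on the log2 scale was -0.38 for POLR1A, -0.36 for WDR43 and -0.36 for MRTO4 among the 32 genes, with adjusted p = 0.09, 0.057 and 0.095. Among the other genes of the pathway it was -0.82 for DNTTIP2 and -0.57 for GPATCH4, with adjusted p = 0.0019 and 0.015. DESeq2's Wald test called 1 of the 32 genes, against 8.53% of the transcripts it tested, and did not call POLR1A or MRTO4. The calls of POLR1A, WDR43 and MRTO4 were also lost in some fits with 1 lysate left out. Each treatment has 2 replicates, and with so few no library could be examined as an outlier of its group.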

How the results depend on the processing

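No call of a gene reversed its direction. Summed over the genes and settings that used all libraries, 146 calls of single genes were kept and 19 lost, and with 1 lysate left out 52 were kept and 62 lost. In RPFs, total counts called 9 genes in Tm against untreated cells in place of 3, with 14.7% of all transcripts called in place of 13.5% and their median at 0.05. DESeq2's Wald test called 4 in Tm+ISRIB against Tm in place of 8 (11.9% of all transcripts in place of 17.7%) and 1 for the difference in the effect of Tm in place of 3 (8.53% in place of 6.9%). In mRNA, Tm against untreated cells had 1 call and had 0 with DESeq2's Wald test, 7 with only the compared treatments, 3 with a replicate block and 0 with total counts, where 7.66%, 28.8%, 16.2% and 10.3% of all transcripts were called in place of 11.0%. Tm+ISRIB against untreated cells had 1 and had 3 without the low-count filter, 8 with only the compared treatments, 4 with a replicate block and 3 with total counts, where 12.2%, 26.9%, 18.6% and 14.7% were called in place of 14.2%. In translational efficiency, Tm+ISRIB against Tm had 0 and had 4 with only the compared treatments and 2 with total counts, where 9.37% and 5.85% were called in place of 6.11%. Tm+ISRIB against untreated cells had 2, of which 1 was called with 10 counts in 2 libraries, DESeq2's Wald test, DESeq2 size factors, no filter, a replicate block (the paired fit by lysate) and total counts, where 7.01% (no filter) to 9.51% (total counts) were called in place of 8.96%. The replicate block moved no other count by over 1.5 times. Letters of different treatments deviated with correlations of -0.04 to 0.11 in RPFs and -0.14 to 0.36 in mRNA. Leaving out 1 lysate, RPF calls ranged from 1 to 5 in Tm against untreated cells, 1 to 6 in Tm+ISRIB against Tm, 0 to 1 in Tm+ISRIB against untreated cells and 0 to 6 for the difference in the effect of Tm. mRNA calls ranged from 0 to 7 in Tm, 0 to 8 in Tm+ISRIB and 0 to 2 in ISRIB, each against untreated cells. Translational efficiency calls ranged from 0 to 3 in Tm, 0 to 3 in Tm+ISRIB and 0 to 1 in Tm+ISRIB against Tm. Such fits leave 1 replicate in a group, which is assumed to vary like the other groups. The causes of these changes were not tested. Depth was lowest in the Tm Ribo-Seq libraries, with 4172745 and 3001612 counts, and ISG20L2 and PNO1 had the fewest counts among the called genes.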
